A study of Capra hircus with 11 samples.

Results

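The simple epithelial keratins KRT7, KRT8, KRT18 and KRT19 were followed across 5 goat (Capra hircus) cell populations profiled by single-cell RNA sequencing. The 4 genes were chosen by their symbols from 16678 gene rows, and each of the 5 tables lists all 4 of them (gene4993, gene4959, gene4957 and gene19607 in the files). All 4 symbols were matched to RefSeq gene names for goat (assembly ARS1.2). The genome build behind the counts is not given in the sources used here, and whether near-identical gene copies took part of the reads could not be examined.

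Ear fibroblasts were measured before induction (BFRTV0d, day 0) and after 4 and 8 days in a small-molecule induction medium named BFRTV (BFRTV4d and BFRTV8d). The cells labelled CiMECs were day-8 cells that had been split further in goat mammary epithelial cell medium, and GMECs were mammary epithelial cells of natural origin with no induction. The induced dishes were coated with Matrigel, a basement membrane extract, and all libraries were made with the 10x Genomics Single Cell 3′ V2 kit. The labels count 3, 3, 2, 1 and 2 samples in BFRTV0d, BFRTV4d, BFRTV8d, CiMECs and GMECs (the design text gives 3 for BFRTV8d), but the deposit merges each group into 1 table whose barcodes carry no sample, so every group had 1 value and no replicate.

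Keratins are the intermediate filament proteins of epithelial cells. A filament is built from pairs of 1 type I and 1 type II protein, so neither type forms a filament alone. KRT8 and KRT7 are type II proteins and KRT18 and KRT19 are type I proteins, and these are the keratins of single-layered and glandular epithelia. In the mammary gland they mark the luminal cells that line ducts and alveoli, whereas KRT5 and KRT14 mark the basal layer. Fibroblasts build their filaments mainly from vimentin (VIM).

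The tables hold 10670, 10203, 10152, 5188 and 5641 barcodes in BFRTV0d, BFRTV4d, BFRTV8d, CiMECs and GMECs, with a median of 9089 to 12535 UMIs (counted molecules) per barcode outside ribosomal protein genes. Any pair of tables shared 37 to 147 barcode sequences, at most 1.73% of a table. Ribosomal protein genes are missing from the 3 BFRTV tables, whereas the CiMECs and GMECs tables list 74 of them and hold many more shallow barcodes. Levels were therefore given as UMIs scaled to a common total (CPM) outside ribosomal protein genes. Where CiMECs are set against BFRTV8d, or GMECs against BFRTV0d, the making of the table and the group cannot be told apart. All intervals below are exact 95% intervals that cover counting error only, and each comparison is between libraries, not conditions.

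Among the type II genes, KRT7 was at 46.2 CPM in BFRTV0d, 532 CPM in BFRTV4d, 988 CPM in BFRTV8d, 2179 CPM in CiMECs and 2918 CPM in GMECs. Its summed level was thus higher at each later induction day, and higher again in CiMECs and in GMECs, where TMM scaling turned the order of those last tables (a ratio of CiMECs to GMECs of 1.06 in place of 0.747). KRT8 was at 469 CPM in BFRTV0d, 618 CPM in BFRTV4d and 338 CPM in BFRTV8d, and at 6415 CPM in CiMECs and 8566 CPM in GMECs. KRT8, the most abundant of the 4 genes in BFRTV0d, CiMECs and GMECs, was lowest in BFRTV8d.

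Among the type I genes, KRT18, the usual filament partner of KRT8, was at 89.3 CPM in BFRTV0d, 100.5 CPM in BFRTV4d and 110.3 CPM in BFRTV8d, and at 4793 CPM in CiMECs and 7373 CPM in GMECs. On this summed scale its levels at the 3 induction days lay close together. The mean of per-cell CPM, which weights every cell alike, was 44.7, 93.3 and 109.4 at days 0, 4 and 8, and the sums without the 5% of barcodes with the most UMIs were 33.9, 92.9 and 109.2 CPM. On each of these scales both mammary cell tables lay far above the induction days. At day 0 the cells with epithelial markers, set apart below, were deeper than those with mesenchymal markers, at medians of 16240 and 9886 UMIs. The same medians were 9473 and 9366 UMIs at day 4, and 8962 and 11616 UMIs at day 8. Removal of the deepest barcodes can thus bear more on cells with epithelial markers at day 0 than at the later days. KRT19, the smallest keratin and a keratin of ductal linings, was at 63.6 CPM in BFRTV0d, 1291 CPM in BFRTV4d, 3291 CPM in BFRTV8d, 3656 CPM in CiMECs and 8424 CPM in GMECs. It was the most abundant of the 4 genes in BFRTV4d and BFRTV8d. The counts behind these levels ran from 5425 UMIs for KRT7 in BFRTV0d to 618233 UMIs for KRT8 in GMECs, and no counting intervals of 1 gene overlapped between any 2 tables. A comparison of levels between the 4 genes is on the scale of 3′ UMI counts, which does not depend on transcript length.

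**Figure D1:**
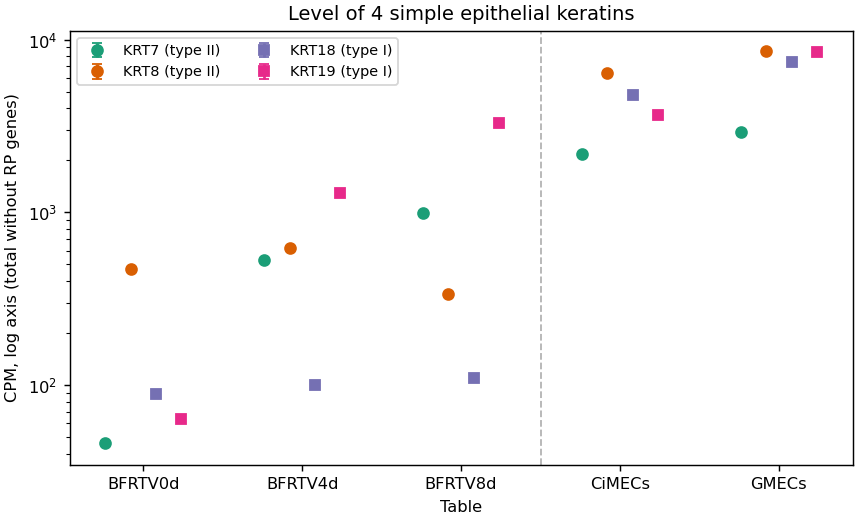
Level of the 4 keratins in each table in CPM on a log axis, with the type II genes as circles and the type I genes as squares. The 95% counting intervals are drawn but are smaller than the symbols, and the dashed line parts the 3 tables without ribosomal protein genes from the 2 tables with them. KRT7 and KRT19 climb from 46.2 and 63.6 CPM in BFRTV0d to 988 and 3291 CPM in BFRTV8d, while summed KRT18 is between 89.3 and 110.3 CPM there and at 4793 CPM or more in CiMECs and GMECs.

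In the first 4 days of induction, KRT19 stood 20.3-fold higher (19.8 to 20.8) and KRT7 stood 11.5-fold higher (11.2 to 11.9), whereas KRT8 was 1.32-fold higher (1.30 to 1.33) and KRT18 1.12-fold higher (1.10 to 1.16). Thus 2 of the 4 genes passed 4-fold upward and 0 downward. Of the 8949 genes with at least 10 CPM in BFRTV4d or BFRTV0d, 5.35% lay 4-fold or more above and 5.77% lay 4-fold or more below. Weighting every cell alike gave 37.3-fold for KRT19, 20.2-fold for KRT7, 2.35-fold for KRT8 and 2.09-fold for KRT18, and summing without the 5% of barcodes with the most UMIs gave 56.6-fold, 25.4-fold, 3.10-fold and 2.74-fold. Given the class depths stated above, this removal may not treat BFRTV0d and BFRTV4d alike. The median log2 fold of the summed levels was 1.96 over the 4 keratins and -0.39 over all genes compared. Under TMM scaling, which equalizes a trimmed mean of genes between tables, the same 2 keratins passed and the split over all genes moved from 479 higher and 516 lower to 638 and 381.

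Between day 4 and day 8 the 4 genes parted. KRT19 stood 2.55-fold higher (2.53 to 2.57) and KRT7 stood 1.86-fold higher (1.84 to 1.87), KRT18 differed by 1.10-fold (1.07 to 1.13), and KRT8 was 1.83-fold lower (1.81 to 1.85). None of the 4 was at least 4-fold apart, where 2.26% of 8469 genes lay 4-fold or more above and 2.52% lay 4-fold or more below. The median log2 fold was 0.51 over the keratins and 0.12 over all genes.

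Over the whole 8 days, KRT19 stood 51.7-fold higher (50.6 to 52.9) and KRT7 stood 21.4-fold higher (20.8 to 22.0). KRT18 was 1.23-fold higher (1.20 to 1.27), and KRT8 was 1.39-fold lower (1.37 to 1.41). The 2 genes that passed 4-fold stood against 10.3% of 9317 genes that lay 4-fold or more above and 9.81% that lay 4-fold or more below. The sign for KRT8 rested on how cells were weighted. The mean of per-cell CPM gave a 1.33-fold higher KRT8 level at day 8, and summing without the 5% of barcodes with the most UMIs gave a 1.80-fold higher level. By the same 2 weightings KRT19 was 99.8-fold and 153-fold higher, KRT7 36.7-fold and 47.7-fold higher, and KRT18 2.45-fold and 3.22-fold higher. The limit stated above for removal of the deepest barcodes holds here too. The 3 comparisons over days share tables, so their values stand side by side and are not independent of each other.

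CiMECs against BFRTV8d showed the opposite pair of genes. KRT18 was 43.5-fold higher (42.7 to 44.3) and KRT8 19.0-fold higher (18.8 to 19.2) in CiMECs, whereas KRT7 was 2.21-fold higher (2.19 to 2.22) and KRT19 1.11-fold higher (1.11 to 1.12). Again 2 of the 4 genes were at least 4-fold higher, in a comparison where 2.96% of 8197 genes lay 4-fold or more above and 17.7% lay 4-fold or more below. The median log2 fold was 2.69 over the keratins and -0.78 over all genes. Under TMM scaling the split over all genes moved from 243 higher and 1453 lower to 655 and 851, and KRT8 and KRT18 were 31.5-fold and 72.1-fold higher. With all listed UMIs as the total, ribosomal protein genes included, KRT19 turned to a ratio of 0.826, so its order between CiMECs and BFRTV8d depends on the total used.

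CiMECs were below GMECs for all 4 genes on the main scale. KRT19 was 2.30-fold lower (2.29 to 2.31), KRT18 1.54-fold lower (1.53 to 1.54), KRT7 1.34-fold lower (1.33 to 1.35) and KRT8 1.34-fold lower (1.33 to 1.34). None passed 4-fold, where 2.22% of 7263 genes lay 4-fold or more above and 4.28% lay 4-fold or more below. The keratin median of -0.52 on the log2 scale was close to the median of -0.51 over all genes compared. Under TMM scaling KRT7 and KRT8 were 1.06-fold higher in CiMECs, KRT18 and KRT19 stayed lower at ratios of 0.923 and 0.616, and the split over all genes moved from 161 higher and 311 lower to 303 and 186. Only KRT18 and KRT19 were thus lower in CiMECs under both scalings.

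GMECs stood above day-0 fibroblasts for every member. KRT19 was 132-fold higher (129 to 135.5), KRT18 82.6-fold higher (81.0 to 84.2), KRT7 63.2-fold higher (61.5 to 64.9) and KRT8 18.3-fold higher (18.1 to 18.4). All 4 genes passed 4-fold, against 6.04% of 8772 genes that lay 4-fold or more above and 11.7% that lay 4-fold or more below. The median log2 fold was 6.17 over the keratins and -0.50 over all genes, and TMM scaling moved the split over all genes from 530 higher and 1027 lower to 718 and 806.

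The make-up of the keratin pool changed along with its size. KRT8 supplied 70.2% of the UMIs of the 4 genes in BFRTV0d, 24.3% at day 4, 7.14% at day 8, 37.6% in CiMECs and 31.4% in GMECs. KRT19 moved the other way over induction, with 9.52%, 50.8% and 69.6% in the 3 BFRTV tables, and supplied 21.5% in CiMECs and 30.9% in GMECs. KRT18 was 13.4%, 3.95% and 2.33% of the pool over the induction days and supplied 28.1% and 27.0% in CiMECs and GMECs. The share of KRT7 was 6.91% in BFRTV0d and between 10.7% and 21.0% in the other tables.

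**Figure D2:**
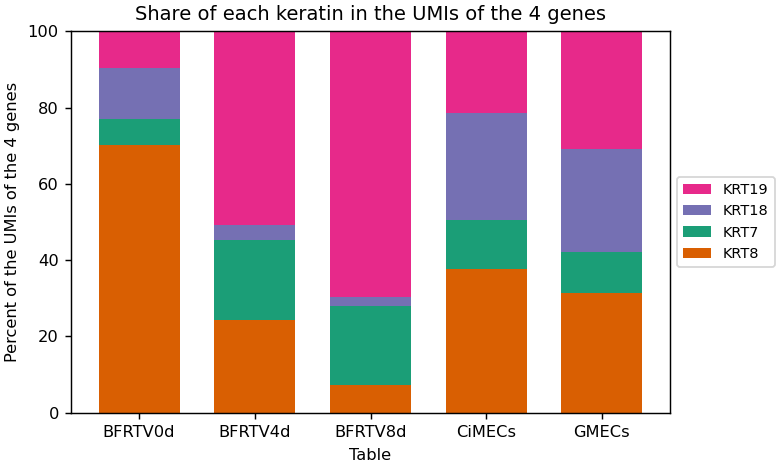
Share of each gene in the UMIs of the 4 keratins, in percent, with 1 stacked bar per table. KRT8 fills 70.2% of the BFRTV0d bar and KRT19 fills 69.6% of the BFRTV8d bar, while KRT18 is the thinnest layer in BFRTV4d and BFRTV8d and over 27% in CiMECs and GMECs.

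Ratios within a table do not depend on how tables are scaled to each other. The KRT18 to KRT8 ratio of UMIs was 0.190 (0.187 to 0.194) in BFRTV0d, 0.163 (0.159 to 0.166) in BFRTV4d and 0.327 (0.320 to 0.334) in BFRTV8d. It was 0.747 (0.744 to 0.751) in CiMECs and 0.861 (0.858 to 0.864) in GMECs, so this pair was nearest to equal counts in the mammary cells. The type I to type II ratio over all 4 genes was 0.297 in BFRTV0d, 1.21 at day 4, 2.57 at day 8, 0.983 in CiMECs and 1.38 in GMECs. Among these 4 genes type II counts thus dominated at day 0 and type I counts at day 8. Other keratins are left out of this ratio. They summed to 768 CPM for type I and 382 CPM for type II in BFRTV0d, and to 4820 and 3282 CPM in BFRTV8d. The KRT19 to KRT8 ratio spanned the widest range, with 0.136 in BFRTV0d, 2.09 at day 4, 9.75 at day 8, 0.570 in CiMECs and 0.984 in GMECs.

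A summed level cannot tell the number of keratin-positive cells from the amount per cell. Cells with at least 3000 UMIs were therefore split by 2 marker lists that hold no keratin, of 30 epithelial genes (junction and adhesion genes, splicing regulators, transcription factors, proteases and their inhibitors) and 20 mesenchymal genes (matrix genes, transcription factors and receptors). Cells with a log2 ratio of epithelial to mesenchymal counts of at least 1 were called epithelial-marker cells, and those at -3 or below mesenchymal-marker cells. These limits were set after the distribution was seen, and the classes are ranges of a score and not cell types. Epithelial-marker cells made up 6.05% of BFRTV0d (646 cells), 45.8% of BFRTV4d (4651 cells), 95.1% of BFRTV8d (9651 cells), 99.9% of CiMECs (4246 cells) and 100% of GMECs (4680 cells). Mesenchymal-marker cells were 92.4%, 44.5% and 2.70% of the BFRTV tables, and 4 and 0 cells in CiMECs and GMECs. Within 0.5 of the upper limit lay 53 epithelial-marker or intermediate cells in BFRTV0d, 178 in BFRTV4d and 56 in BFRTV8d. The table labelled ear fibroblasts thus held a minority of cells with epithelial markers before induction.

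Within epithelial-marker cells the members divided into a pair with lower and a pair with higher levels at the later days. KRT8 was at 3753 CPM in BFRTV0d, 1208.5 CPM in BFRTV4d and 356 CPM in BFRTV8d, which was 10.5-fold lower (10.4 to 10.7) at day 8 than at day 0. KRT18 was at 741, 199 and 116 CPM in the same order, 6.37-fold lower (6.19 to 6.55) at day 8. Both were already lower at day 4 than at day 0, by 3.11-fold for KRT8 and 3.72-fold for KRT18, and lower again at day 8 than at day 4, by 3.40-fold and 1.71-fold.

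KRT7 and KRT19 were higher at the later days within the same cells. KRT7 was at 373 CPM in BFRTV0d, 1027 CPM in BFRTV4d and 1038.5 CPM in BFRTV8d. Its day-8 level was 2.78-fold (2.70 to 2.87) that of day 0, and day 8 and day 4 differed by 1.01-fold (1.00 to 1.02). KRT19 was at 511, 2575 and 3475.5 CPM, 6.81-fold higher (6.64 to 6.98) at day 8 than at day 0. The 21.4-fold and 51.7-fold higher table levels of KRT7 and KRT19 thus stood beside 15.7-fold more epithelial-marker cells by share.

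In CiMECs and GMECs nearly all cells were in the epithelial-marker class, so the class levels were close to the table levels. KRT8 was at 6435 and 8509 CPM, KRT18 at 4815 and 7329 CPM, KRT19 at 3643 and 8373 CPM and KRT7 at 2170.3 and 2885 CPM. Against epithelial-marker cells of BFRTV8d, CiMECs were 41.4-fold higher (40.6 to 42.2) for KRT18 and 18.1-fold higher (17.9 to 18.3) for KRT8. For KRT19 and KRT7 the same comparison gave 1.05-fold (1.04 to 1.05) and 2.09-fold (2.07 to 2.11). GMECs exceeded the epithelial-marker cells of BFRTV0d by 16.4-fold for KRT19, 9.89-fold for KRT18, 7.73-fold for KRT7 and 2.27-fold for KRT8. KRT8 was the member for which the day-0 epithelial-marker cells came nearest to GMECs.

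**Figure D3:**
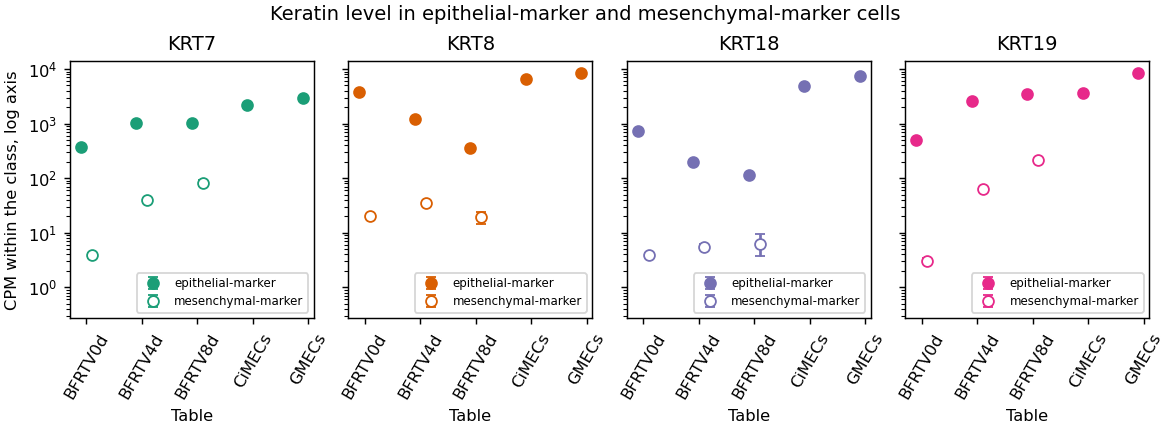
CPM on a log axis within epithelial-marker cells (filled) and mesenchymal-marker cells (open) of each table, 1 panel per gene, with 95% counting intervals. Classes of fewer than 50 cells are not drawn. Filled circles of KRT8 and KRT18 lie at 3753 and 741 CPM in BFRTV0d and at 356 and 116 CPM in BFRTV8d, those of KRT7 and KRT19 lie higher at the later days, and open circles stay below the filled ones in every BFRTV table.

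The basal keratins served as a reference within the same cells. KRT14, the type I basal keratin, was at 5203, 2965 and 4908 CPM in epithelial-marker cells of the 3 BFRTV tables, and KRT5, its type II partner, was at 2318, 4116 and 2849 CPM. From day 0 to day 8 KRT14 was 1.06-fold lower and KRT5 1.23-fold higher, so neither basal keratin was lower by the size seen for KRT8 and KRT18. In CiMECs and GMECs KRT14 was at 279 and 21.7 CPM and KRT5 at 990 and 743 CPM. There each of the 4 simple keratins exceeded both basal keratins, whereas in epithelial-marker cells of every BFRTV table KRT14 exceeded all 4. KRT5 exceeded all 4 in those of BFRTV4d only.

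The minority of epithelial-marker cells carried most of the day-0 keratin signal. These 646 cells held 82.9% of the KRT7 UMIs of BFRTV0d, 82.1% of the KRT8 UMIs, 85.1% of the KRT18 UMIs and 82.3% of the KRT19 UMIs. A further 9.79% to 14.1% of each gene's UMIs lay in 170 cells between the limits, whose median of 19207 UMIs exceeded those of both classes, at 16240 and 9886 UMIs. No doublet caller was run, and the part of barcodes with 2 cells in this intermediate range was not tested. The 9854 mesenchymal-marker cells held 3.80% to 7.28% of each gene's UMIs.

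In mesenchymal-marker cells, which serve here as the cells that should lack these genes, levels were low but not 0. In BFRTV0d they were at 3.88 CPM for KRT7, 20.7 CPM for KRT8, 3.91 CPM for KRT18 and 3.09 CPM for KRT19. As a percent of the epithelial-marker level, KRT8, KRT18 and KRT19 were at 0.550%, 0.528% and 0.605%, and the basal keratins KRT5 and KRT14 at 0.618% and 0.565%. KRT7 stood above these 5 keratins at 1.04% (0.934% to 1.15%). TP63, a basal transcription factor, was at 0.729% (0.508% to 1.02%) in BFRTV0d, 5.51% at day 4 and 15.7% (12.2% to 19.8%) at day 8, so it lay above KRT7 at both later days. In BFRTV4d the same percent was 2.42% to 2.86% for KRT8, KRT18 and KRT19 and 3.85% (3.67% to 4.04%) for KRT7. In BFRTV8d it was 5.35% to 6.15% for those 3 genes and 7.96% (7.03% to 8.98%) for KRT7, among 274 cells. Whether free RNA gave these levels was not tested.

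Shares of positive cells were compared after each cell was thinned at random to 3000 UMIs, because depth differed between tables. KRT7 was found in 3.76% of BFRTV0d cells, 50.2% of BFRTV4d cells and 85.2% of BFRTV8d cells, and in 97.2% of CiMECs and 99.3% of GMECs. KRT19 was found in 3.97%, 51.9% and 93.3% of cells over the induction days, and in 98.6% of CiMECs and 99.9% of GMECs. Both genes went from rare to nearly general within 8 days.

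KRT8 was found in 12.9% of BFRTV0d cells, 51.0% of BFRTV4d cells and 55.3% of BFRTV8d cells, and in 99.7% of CiMECs and all but 2 of 4680 GMECs. KRT18 was found in 4.59%, 19.4% and 25.4% over the induction days, and in 97.1% of CiMECs and 99.3% of GMECs. More cells were thus positive for KRT8 at day 8 than at day 0 although the summed KRT8 level was lower. The order of days 4 and 8 for KRT8 turned at a depth of 1500 UMIs, with 39.5% and 35.6%, and with a rule of at least 2 UMIs, with 36.5% and 25.1%. Without thinning, the shares at day 8 were 96.8% for KRT7, 83.8% for KRT8, 53.7% for KRT18 and 98.6% for KRT19.

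Within epithelial-marker cells the share positive for KRT8 went from 97.5% in BFRTV0d to 88.1% in BFRTV4d and 57.4% in BFRTV8d, and that for KRT18 from 47.7% to 37.1% and 26.4%. The share positive for KRT19 went from 43.5% to 82.8% and 94.8%, and that for KRT7 from 39.0% to 85.4% and 87.7%. In mesenchymal-marker cells KRT8 was found in 5.98%, 10.2% and 3.28%, KRT18 in 1.19%, 1.61% and 1.46%, KRT7 in 1.13%, 11.0% and 22.6%, and KRT19 in 1.00%, 17.0% and 49.6%. Whether these shares are background from free RNA was not tested. The median depth of the classes before thinning was 9473 and 9366 UMIs in BFRTV4d and 8962 and 11616 UMIs in BFRTV8d, epithelial-marker cells first.

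The 4 genes varied between cells to different extents. Over epithelial-marker cells thinned to 3000 UMIs, the median KRT8 count was 7.5 UMIs in BFRTV0d, 3 at day 4, 1 at day 8, 15 in CiMECs and 19 in GMECs. The median KRT19 count was 0, 5, 8, 8 and 20 UMIs in the same order, that of KRT7 0, 2, 2, 5 and 7, and that of KRT18 0, 0, 0, 9 and 14. At day 8 the median cell thus held as many KRT19 molecules per 3000 as a median CiMEC, but no KRT18.

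The coefficient of variation was lowest in the mammary cell tables, where counts of KRT7, KRT8 and KRT18 were also highest. It was 0.662 and 0.627 for KRT7, 0.667 and 0.669 for KRT8, 0.893 and 0.881 for KRT18 and 0.738 and 0.662 for KRT19 in CiMECs and GMECs. In epithelial-marker cells of BFRTV0d it was 0.918 for KRT8 but 1.97 for KRT18, 2.01 for KRT7 and 1.85 for KRT19. Before thinning, at uneven depth, the 10% of these cells with the most UMIs of KRT7, KRT18 or KRT19 held 60.9% to 66.0% of that gene's own UMIs. Also before thinning, KRT7, KRT18 and KRT19 had a UMI in 63.0%, 74.1% and 61.5% of the same cells. Low counts raise this measure by sampling alone, so it cannot rank genes or tables of different level by how uniform they are. The ratio of variance to mean in CiMECs and GMECs was 7.55 and 10.0 for KRT8 against 1.45 in BFRTV8d, and 9.79 and 14.1 for KRT18 against 1.25. For KRT7 it was 2.58 and 3.25 against 2.13, and for KRT19 5.43 and 10.4 against 7.34.

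**Figure D4:**
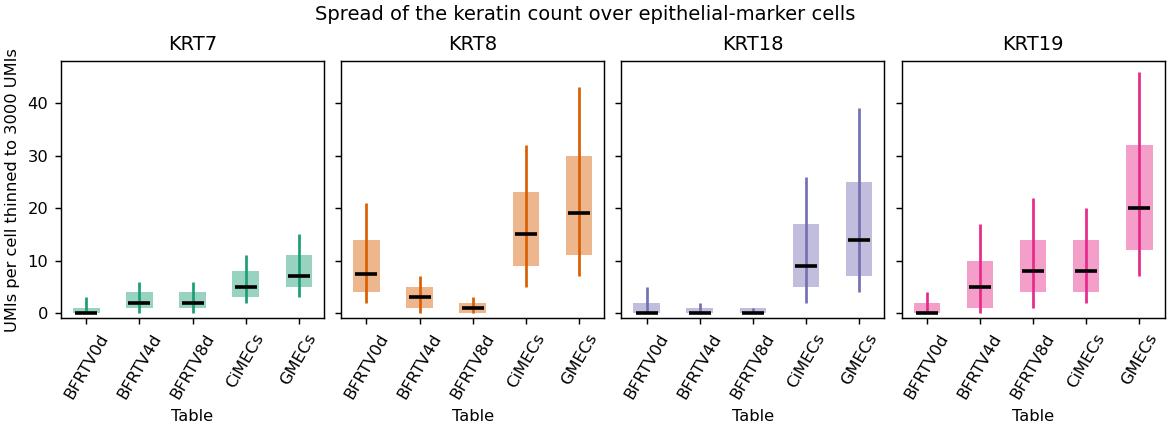
UMIs of each gene per cell after thinning to 3000 UMIs, over the epithelial-marker cells of each table. Boxes span the 25th to 75th percentile, thin lines the 10th to 90th percentile and black dashes mark medians. The KRT8 median goes down from 7.5 to 1 UMIs between BFRTV0d and BFRTV8d and is 15 and 19 UMIs in CiMECs and GMECs, while KRT18 medians are 0 in all 3 BFRTV tables.

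Because filaments need both types, detection of the genes in the same cell was counted. All 4 genes were found in 1.20% of BFRTV0d cells, 13.0% of BFRTV4d cells, 14.3% of BFRTV8d cells, 93.5% of CiMECs and 98.4% of GMECs. None of the 4 was found in 84.2%, 30.1% and 1.61% of the cells of the 3 BFRTV tables. In CiMECs and GMECs 0 of 4250 and 0 of 4680 thinned cells lacked all 4.

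Within epithelial-marker cells all 4 genes were found together in 18.3% of BFRTV0d, 26.7% of BFRTV4d and 15.0% of BFRTV8d cells, so joint detection peaked at day 4. The most frequent pattern in BFRTV0d was KRT8 alone, in 28.9% of these cells. In BFRTV4d it was KRT7, KRT8 and KRT19 without KRT18, in 36.6%. The same pattern was the most frequent in BFRTV8d, in 33.6%, followed by KRT7 and KRT19 alone, in 27.1%. KRT18 was absent from each of these leading patterns, while KRT8 alone also lacked KRT7 and KRT19, and the pattern of KRT7 and KRT19 also lacked KRT8. A gene missed at this depth may still be present at a low level.

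**Figure D5:**
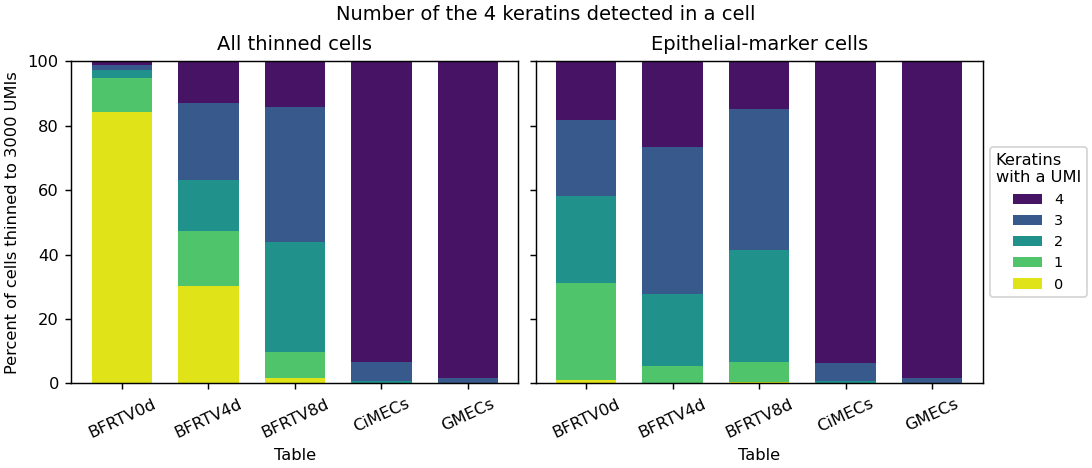
Percent of cells, thinned to 3000 UMIs, in which 0 to 4 of the keratins had a UMI, for all cells and for epithelial-marker cells of each table. The bar part with all 4 genes is 18.3%, 26.7% and 15.0% in epithelial-marker cells of the BFRTV tables and 93.5% or more in CiMECs and GMECs.

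The classical pair KRT8 and KRT18 was correlated most strongly in the mammary cells, where both genes also had their highest counts. Among all thinned cells KRT18 was found in 27.4% of KRT8-positive and 1.22% of KRT8-negative cells in BFRTV0d, in 33.4% and 4.74% in BFRTV4d, and in 29.4% and 20.4% in BFRTV8d. In epithelial-marker cells the same shares were 48.3% and 25% in BFRTV0d, where only 16 cells were KRT8-negative, 39.0% and 23.1% in BFRTV4d, and 29.5% and 22.2% in BFRTV8d. The gap between KRT8-positive and KRT8-negative cells was thus narrower at day 8 than at day 4, and low counts can narrow it by sampling alone. In CiMECs and GMECs 13 and 2 cells were KRT8-negative, too few for this comparison.

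Across epithelial-marker cells the Pearson correlation of log2 counts between KRT8 and KRT18 was 0.39 in BFRTV0d, 0.19 at day 4, 0.13 at day 8, 0.76 in CiMECs and 0.78 in GMECs. In CiMECs and GMECs KRT18 ranked first among 4210 and 5430 genes by correlation with KRT8, and KRT8 ranked first for KRT18. For KRT19 and KRT7 the correlation was 0.41, 0.21, 0.32, 0.46 and 0.59 in the same order of tables. The cells of 1 table share a library and were thinned to 1 depth, and values near 0.1 to 0.2 in such sparse counts are given as a description only. Mean KRT18 counts in these thinned cells were 1.79, 0.548, 0.342, 12.3 and 18.2 UMIs from BFRTV0d to GMECs. Sampling at low counts weakens a correlation, so the order of tables cannot be read as a difference in coupling.

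The other genes nearest to each member by this correlation differed between tables. In epithelial-marker cells of BFRTV0d, KRT7 was nearest to KRT18 (0.52), CST6 (0.51), a cystatin protease inhibitor, and SULT2B1 (0.45), a sulfotransferase, and KRT8 was nearest to ANXA2 (0.59), a membrane-binding annexin, TAGLN (0.50), an actin-binding protein, and LOC102177275 (0.44). CST6 was also second for KRT18 (0.48) and KRT19 (0.41). In BFRTV8d KRT19 was nearest to SPP1 (0.53), the secreted phosphoprotein osteopontin, which was also first for KRT19 in BFRTV4d (0.40). In CiMECs and GMECs the nearest gene of each member was another member, with 0.51 and 0.59 for KRT7, 0.76 and 0.78 for KRT8 and KRT18, and 0.46 and 0.61 for KRT19. ANXA2 ranked 3 for KRT8 in both, at 0.49 and 0.53.

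Cells of the same class were further split by single marker genes, which were chosen with earlier results of these data known. In BFRTV0d the 119 epithelial-marker cells without KRT5 held more of each member than the 527 with KRT5. KRT7 was 2.51-fold lower with KRT5, KRT19 2.17-fold lower, KRT18 2.05-fold lower and KRT8 1.35-fold lower. This order was not seen in the other tables. The cells with KRT5 in CiMECs and GMECs held more of each member, at 1.18-fold and 1.31-fold for KRT7, 1.14-fold and 1.17-fold for KRT8, 1.14-fold and 1.08-fold for KRT18, and 1.21-fold and 1.49-fold for KRT19. At day 8 the 9511 cells with KRT5 held 1.63-fold more KRT19, 1.32-fold more KRT8 and 1.24-fold more KRT7 than the 140 without. KRT18 was at 0.920 (0.792 to 1.08) there. Of the epithelial-marker cells of day 4, 4589 held KRT5 and only 62 did not. KRT8 was 1.66-fold, KRT18 1.32-fold and KRT19 1.09-fold higher with KRT5 at day 4, and KRT7 was at 0.993 (0.918 to 1.08). Back in BFRTV0d, the 73 cells with MSLN, which encodes the surface protein mesothelin, held 3.19-fold more KRT7 (2.99 to 3.40), 2.11-fold more KRT18, 1.94-fold more KRT19 and 1.76-fold more KRT8 than the 573 without. Median depth was 16308 and 16231 UMIs with and without MSLN. The 2920 CiMECs with MSLN held 1.16-fold to 1.19-fold more of each member, at median depths of 16231 and 12840 UMIs with and without it. In 52 epithelial-marker cells of BFRTV8d with MSLN the ratios were 1.06 (0.972 to 1.14) for KRT7 and 0.909 (0.779 to 1.05) for KRT8. There KRT18 was at 0.789 (0.585 to 1.04) and KRT19 at 0.895 (0.852 to 0.938).

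In BFRTV8d the 2927 epithelial-marker cells with ATP6V1B1, a proton pump subunit, were split in their keratins. KRT8 was 1.35-fold lower and KRT18 1.36-fold lower in them, while KRT19 was 1.26-fold higher and KRT7 1.08-fold higher. The same direction held for KRT8, KRT18 and KRT19 in cells with ELF5, a transcription factor of secretory mammary cells, at 313.9, 110.6 and 4238 CPM against 360.5, 117.0 and 3389 CPM without it. The interval for KRT18 by ELF5 included no difference, at a ratio of 0.945 (0.887 to 1.01). KRT7 also went the same way with ELF5, at 1.04-fold (1.02 to 1.06). The split was also seen in BFRTV4d, in 162 epithelial-marker cells with ATP6V1B1. KRT8 was 2.39-fold and KRT18 1.63-fold lower in them, and KRT19 1.36-fold and KRT7 1.19-fold higher. In 97 such cells with ELF5 KRT8 was at a ratio of 0.593 (0.551 to 0.638) and KRT18 at 0.741 (0.626 to 0.871). KRT19 was at 1.10 (1.06 to 1.14) and KRT7 at 1.02 (0.962 to 1.09) there.

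In GMECs keratin levels differed by a proliferation marker and by the luminal marker PIGR. The 636 cells with MKI67, a marker of cycling cells, held 1.46-fold less KRT8, 1.44-fold less KRT18, 1.41-fold less KRT19 and 1.23-fold less KRT7 than the 4044 without. The 1470 cells with PIGR, the receptor that carries immunoglobulin into milk, held 1.34-fold less KRT18 and 1.13-fold less KRT8 but 1.21-fold more KRT19 and 1.09-fold more KRT7. The 104 cells with KRT14 held 1.77-fold more KRT18 and 1.52-fold more KRT8, with a median depth of 16712 UMIs against 13415. In CiMECs the same direction with MKI67 was seen in 78 cells for all 4 genes, at ratios of 0.855 to 0.924. In epithelial-marker cells of BFRTV4d and BFRTV8d KRT18 went the other way with MKI67. It was 1.26-fold higher (1.20 to 1.33) at day 4 and 1.46-fold higher (1.28 to 1.66) at day 8. In those of BFRTV0d all 4 genes were lower with MKI67, at ratios of 0.548 to 0.666, with KRT18 at 0.635 (0.586 to 0.687).

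The remaining keratins were mostly low or not listed. Of 24 other type I keratins, 4 to 7 were listed per table, with a summed level of 768 CPM in BFRTV0d, 4820 CPM in BFRTV8d, 362 CPM in CiMECs and 88.5 CPM in GMECs. Of 24 other type II keratins, 3 to 9 were listed, with 382 CPM in BFRTV0d, 3282 CPM in BFRTV8d, 1130.5 CPM in CiMECs and 833 CPM in GMECs. At day 8 against day 0, KRT5 was 9.45-fold higher, KRT14 7.26-fold higher and KRT6A, a keratin of activated keratinocytes, 5.86-fold higher. In CiMECs against BFRTV8d, KRT14 was 16.7-fold lower and KRT6A 4.84-fold lower, while KRT8 and KRT18 were higher. KRT80 was at 72.8 CPM in GMECs and 0.791 CPM in BFRTV0d, the one other keratin of at least 50 CPM that was over 4-fold higher in GMECs than in BFRTV0d.

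A list of 20 genes, mostly linkers and partners of keratin filaments, included members on both sides. KRTCAP2 and KRTCAP3 in it are keratinocyte-associated proteins and not filament linkers, although they enter the counts below. Of the 20, 15 were compared between BFRTV4d and BFRTV0d with 3 at least 4-fold higher and 1 lower, beside 5.35% and 5.77% of all genes. Between BFRTV8d and BFRTV0d, 4 of 16 were higher and 1 lower, beside 10.3% and 9.81% of all genes. KRTCAP3 was among the higher genes against BFRTV0d in both BFRTV4d (5.47-fold) and BFRTV8d (10.1-fold). DSP, SFN, PKP1 and PKP3 are also in the epithelial list that set the cell classes. DSP, which ties keratins to desmosomes, was 8.52-fold higher and PPL, a plakin of the cell cortex, 14.3-fold higher at day 8, whereas PLEC, a plakin that links several filament systems, was 11.0-fold lower. In CiMECs against BFRTV8d 1 of 15 was higher (KRTCAP3, 4.11-fold) and 1 lower (DST, a hemidesmosome plakin, 24.1-fold), beside 2.96% and 17.7% of all genes. The list median was 0.76 on the log2 scale for BFRTV8d against BFRTV0d and -0.39 for CiMECs against BFRTV8d, beside -0.29 and -0.78 over all genes. In CiMECs against GMECs SFN, an adaptor that binds keratins, was 7.58-fold higher and PLEC 4.53-fold lower. In GMECs against BFRTV0d 5 of 16 genes of the list were higher and 1 lower, beside 6.04% and 11.7% of all genes.

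The other intermediate filament genes, which include the nuclear lamins, were mostly lower at day 8. Of 7 compared between BFRTV8d and BFRTV0d, 5 were at least 4-fold lower and 0 higher, beside 9.81% and 10.3% of all genes. VIM went from 6146 to 1212 CPM, 5.07-fold lower, and NES, which encodes nestin, from 144 to 1.05 CPM. The others were SYNC, 30.9-fold lower, and the lamin genes LMNA, 5.59-fold lower, and LMNB2, 5.23-fold lower and named here after its value was seen. VIM was still at 1237 CPM in GMECs, 4.97-fold below BFRTV0d, while NES was 325-fold lower there.

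Transcription factors of epithelial genes were higher at day 8, as were KRT7 and KRT19, and lower in CiMECs, where KRT8 and KRT18 were higher. Of 13 compared between BFRTV8d and BFRTV0d, 12 were at least 4-fold higher, beside 10.3% of all genes, with EHF 82.3-fold, GATA3 47.3-fold and TP63 20.4-fold higher. Of 13 compared between CiMECs and BFRTV8d, 12 were at least 4-fold lower, beside 17.7% of all genes, among them TP63 at 283-fold, GATA3 at 21.5-fold and KLF4 at 12.7-fold. Their summed level was 168, 504, 1767, 194 and 553 CPM from BFRTV0d to GMECs. EHF, ELF3 and GRHL2 of this list are also in the epithelial list that set the cell classes.

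Markers of other cells that can express simple keratins were read beside these results. Merkel cells of skin, sweat gland, mesothelium, endothelium, immune cells and melanocytes were covered by short lists. Of 6 Merkel markers, 4, 3, 2, 1 and 1 were listed from BFRTV0d to GMECs with a sum of 0.221 to 24.5 CPM, and the defining KRT20 and ATOH1 were listed in none. The sum of 7 sweat gland markers, of which 2 or 3 were listed, was 8.11, 34.1, 200.4, 17.2 and 13.4 CPM. ATP6V1B1 alone was at 177 CPM in BFRTV8d. The 8 mesothelial markers, of which 2 to 4 were listed, summed to 281, 88.0, 84.4, 732 and 199 CPM. Outside CiMECs PDPN alone made up most of each sum, at 269, 77.5, 68.8 and 197 CPM in BFRTV0d, BFRTV4d, BFRTV8d and GMECs. In CiMECs PDPN was at 160 CPM. MSLN was at 568 CPM in CiMECs against 2.59 CPM in GMECs and 2.47 CPM in BFRTV8d. The part of such cells in the keratin levels was not tested. Endothelial, immune and melanocyte markers summed to 6.27 CPM or less in every table.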

How the data were processed

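The labels describe 11 samples in 5 groups of goat cells. The authors deposited 1 table of whole-number UMI counts per gene and barcode for each group, without normalization. FastQC 0.10.1 and Cell Ranger (version not given) are credited to the submitters' processing notes. Barcodes carry no sample, so each table was treated as 1 library and no test was run. Counts were summed over barcodes and divided by the total outside ribosomal protein genes. Exact Poisson, binomial (Clopper-Pearson) and conditional binomial intervals at 95% cover counting error only, since molecules of 1 library are not replicates. Genes with at least 10 CPM in 1 of 2 tables were compared, and a gene at 0 or not listed was set at 3 counts or at the fewest cells of a listed gene (11 or 6). Cells of at least 3000 UMIs were thinned to 3000. Class scores used counts per 10000 with 0.5 added. The 3 genes of highest Pearson correlation with a member were named among genes in at least 5% of cells. From other lists, genes at least 4-fold apart with at least 50 CPM could be named. The fold step was tested on simulated data. The members and lists were chosen with earlier results of these data known. Python 3.11.15 (numpy 2.4.6, scipy 1.17.1, pandas 2.3.3) and edgeR 4.0.16 in R 4.3.3, the latter for TMM factors only, were used. Other totals, scalings, folds, depths and class limits were tried. No sequences or coordinates are given because the build is not given in the sources used here.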

Additional observations from a re-analysis of the deposited data

How the results depend on the processing

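No paired analysis was possible because each group is 1 pooled table, and for the same reason no replicate could be left out. The counts of members at least 4-fold apart were the same in all 6 comparisons under another total, TMM and median-of-ratios scaling, the mean of per-cell CPM, barcodes of at least 2000 UMIs and removal of the 5% deepest barcodes. A 2-fold limit called 1 member higher in BFRTV8d than in BFRTV4d (KRT19) and 1 lower in CiMECs than in GMECs (KRT19) where the 4-fold limit called 0. In CiMECs against BFRTV8d it added KRT7, at 2.21-fold higher, to the KRT8 and KRT18 that passed 4-fold. All 4 members were highest in GMECs on the main scale, but 2 were under TMM and 2 under median-of-ratios scaling, since KRT7 and KRT8 then turned to 1.06-fold higher in CiMECs by TMM (both) and to 1.08-fold higher by median of ratios (both). KRT8 in BFRTV8d over BFRTV0d turned from 0.720 to 1.33 by the mean of per-cell CPM and to 1.80 without the deepest 5% of barcodes, and KRT19 in CiMECs over BFRTV8d turned from 1.11 to 0.826 with all listed UMIs as the total. The causes were not tested. The lower level of KRT8 and KRT18 in epithelial-marker cells of day 8 than of day 0 held under stricter class limits and without the deepest 5% of barcodes. The share of positive cells was higher at each later day for 4 members at 3000 UMIs and unthinned, but for 3 at 1500 UMIs and 3 with at least 2 UMIs, the exception being KRT8 at day 8. Depth limits the reading of a missing KRT18 in single cells of the BFRTV tables.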

Other observations

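The CiMECs and GMECs tables hold barcodes with few molecules, which entered no per-cell result. In 639 GMECs barcodes under 1000 UMIs, KRT19 was at 12987 CPM, KRT8 at 12836 CPM, KRT18 at 10429 CPM and KRT7 at 5539 CPM, each above the 8373, 8509, 7329 and 2885 CPM of cells with at least 3000 UMIs. In 453 such CiMECs barcodes, KRT19 was at 5369 CPM and KRT7 at 3200.3 CPM, above the 3639 and 2168 CPM of deeper cells. KRT8 there was at 6374 CPM against 6428 CPM and KRT18 at 4455 CPM against 4810 CPM, so these 2 genes did not stand higher in the shallow barcodes of CiMECs.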
